A study of Mus musculus with 6 samples.

Results

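The region described here is a stretch of mouse chromosome 1 that carries a copy of mitochondrial DNA, read as the minus strand with the 5' end of the alignment between 24619000 and 24624000 in the coordinates of the deposited alignments (mm9, the build in the submitters' processing notes). Its members are the distinct 5' ends of the reads placed there, 427 of the 75148 distinct positions of the whole series. The mES aggregate held 287 of them and the mEF aggregate 246. The members were chosen by the measured position and strand of the alignments, so their number is a description and no test was made on it.

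Nuclear mitochondrial insertions are pieces of the mitochondrial genome that were copied into a chromosome. Mitochondrial DNA is transcribed into long precursors, which are cut at their tRNAs and given polyA tails, and so an oligo-dT primer captures mitochondrial mRNAs along with those of the nucleus. Where an insertion still has the mitochondrial sequence, a short read from a mitochondrial mRNA can be aligned to both places.

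All 6 sequenced libraries are labelled as a mixture of 2 mouse cell types. The mES are embryonic stem cells of the line V6.5, grown in serum with leukemia inhibitory factor (LIF) and BME, and the mEF are embryonic fibroblasts (Globalstem GSC-6002, 10.5 p.c. as labelled), grown in that medium without LIF or BME. Cells of both types were lysed in drops, their polyA RNA was primed with barcoded oligonucleotides, and the 3' ends of the transcripts were sequenced. In the paper a barcode marks a cell and does not itself encode a cell type. The authors assigned the reads of each barcode to a cell type and pooled the libraries. This left 1 mES aggregate of 750739 alignment records and 1 mEF aggregate of 459005. The accuracy of the assignment could not be checked here, as the records carry no barcode. In the paper, clusters of cells by expression overlapped the cell types strongly but not fully. An aggregate may therefore hold reads of the other cell type. Each cell type is 1 line and 1 pool, without replicates, so no test between cell types is given, and the intervals in the text cover counting error only, at a level of 95%. The read names show 3 sequencing runs, numbered by their number of records. A cell type's records in run 3 were fewest, 108810 in mES and 29681 in mEF.

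The name given to the region was first checked against the paired placements. All reads were joined by name, which gave 12275 reads with both a chromosome 1 position in the region and a plus-strand mitochondrial position. The chromosome 1 coordinate fell as the mitochondrial coordinate rose, and the sum of both was 24629417 for 12198 of these reads, or 99.4%, at 422 of 425 pairs of positions. The other 77 reads, at 3 pairs, had a sum of 24629416. The members therefore lay in mitochondrial order on the reverse strand, from chr1:24619371-24623017, opposite mitochondrial positions 6400 to 10045. The change of 1 nt in the sum fell between a read that ended at mitochondrial position 9802 and one that started at 9833. That interval lies at the end of mt-Nd3 and the beginning of mt-Tr, the tRNA for arginine. No paired alignment had a different span on the 2 chromosomes.

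The copy's genes are annotated in GRCm38, the build of the reference annotation, as 7 unprocessed pseudogenes on the minus strand of chromosome 1. They were matched by sequence to mitochondrial transcripts, not by converting coordinates. From the highest coordinate to the lowest these are Gm29216 (matching the end of mt-Co1), Gm28661 (mt-Co2), Gm10925 (mt-Atp6), Gm28437 (mt-Co3), Gm28438 (mt-Nd3), Gm10222 (mt-Nd4l) and Gm28439 (the first part of mt-Nd4). In GRCm38 they run from 24611535 to 24616197. Over 4149 aligned nt the pseudogenes and the mitochondrial genes had 7 differences, all substitutions. Of these, 6 lay at the start of Gm29216 and 1 in Gm28438, while the other 5 pseudogenes were identical to their mitochondrial partners over the aligned length. The sum of GRCm38 coordinates also stepped by 1, from 24622578 up to mt-Nd3 to 24622577 from mt-Nd4l on.

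The 2 places where the copy and the mitochondrial genes differ are shown because reads with a single placement lay there. The first 60 nt of mt-Nd3, a subunit of respiratory complex I, and of its copy differed at T3C, counted from 1 at the first base of mt-Nd3. Base 3 is mitochondrial position 9461. Capitals mark the base that differs, and both sequences are from the GENCODE transcripts of GRCm38.
mt-Nd3: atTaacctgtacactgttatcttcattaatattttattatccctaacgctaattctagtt
Gm28438: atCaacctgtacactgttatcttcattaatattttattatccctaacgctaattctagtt
The other place is the edge of the copy inside mt-Co1, the catalytic subunit of cytochrome c oxidase. Here bases 1054 to 1113 of mt-Co1 are set against the first 60 of Gm29216, with the differences in capitals, and past A1066T the sequences were the same to the end of Gm29216.
mt-Co1: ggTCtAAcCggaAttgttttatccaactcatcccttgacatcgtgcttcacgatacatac
Gm29216: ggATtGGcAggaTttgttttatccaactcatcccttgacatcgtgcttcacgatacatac

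Nearly every member read was also placed on the mitochondrial chromosome. In mES this held for 4689 of 4705 reads, 99.7% (95% exact binomial interval 99.4 to 99.8), and in mEF for 7586 of 7630, 99.4% (99.2 to 99.6). The mapping score, which the aligner sets, followed the number of placements in each read of the region. A score of 255, the highest, went with 1 placement, a score of 3 with 2 placements and a score of 1 with 3. In mES 77.7% of the records had a score of 3, 22% a score of 1 and 0.339% the highest, and in mEF these were 79%, 20.4% and 0.577%. The same count over the whole series gives the background, as 7.93% of mES reads and 8.43% of mEF reads had several placements. Reads of this region made up 9.66% of those mES reads and 23.2% of those mEF reads.

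In the other direction the pairing was complete between the outermost paired reads. These limits were taken from the member reads themselves, so both edges are paired by construction and the share is a description. All 4689 mES reads and all 7586 mEF reads whose mitochondrial 5' end lay from 6400 to 10045 on the plus strand were also placed on the copy. With 0 mitochondrial reads without it, a count of 3 would be a share of 0.064% in mES and 0.0395% in mEF. Outside this stretch, 7.39% of the mES mitochondrial reads (6.95 to 7.86) and 6.45% of the mEF reads (5.84 to 7.11) had several placements.

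Reads placed on chromosome 1 and nowhere else numbered 60 and lay at 2 adjacent positions. The 16 in mES had their 5' end at 24619958 (chr1:24619924-24619958), opposite mitochondrial position 9459, the first base of mt-Nd3. The 44 in mEF had it at 24619957 (chr1:24619923-24619957), opposite the second base. By run, the mES reads were 8 in run 1 and 8 in run 2, the mEF reads 30 and 14, and run 3 had none. Every alignment at these positions covers the T3C base of the sequences printed above, and no other member alignment does. Conversely, no plus-strand mitochondrial record covered position 9461 in either aggregate. Of the 60 reads over this base 0 were placed on the mitochondrial chromosome. They are heaps at 2 positions and not 60 independent observations, so no limit on a share is given. The files do not hold the bases of the reads, so which base they carried was not measured. Each of the positions was present in 1 cell type only, but a position 1 nt apart in 1 pool each is not a difference between cell types.

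Across the edge in mt-Co1 the placements went the other way. The reads that covered at least 1 of the 6 substitutions of Gm29216 numbered 79 in mES, at 6 positions, and 45 in mEF, at 2 positions. All 124 were placed on the mitochondrial chromosome only, with the highest score, and 0 on chromosome 1. The 6 substitutions lie between mitochondrial positions 6383 and 6393, and the reads were picked for covering them. The reference sequences thus largely set this outcome, which describes the placements and is not separate support for the edge. The last of them started at mitochondrial position 6385, and the first read with both placements at 6400. On the far side, the first reads with 1 placement started at mitochondrial position 11016, and the annotated end of Gm28439 lies opposite 11042. The sequence of chromosome 1 past that end was not analysed here.

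**Figure D1:**
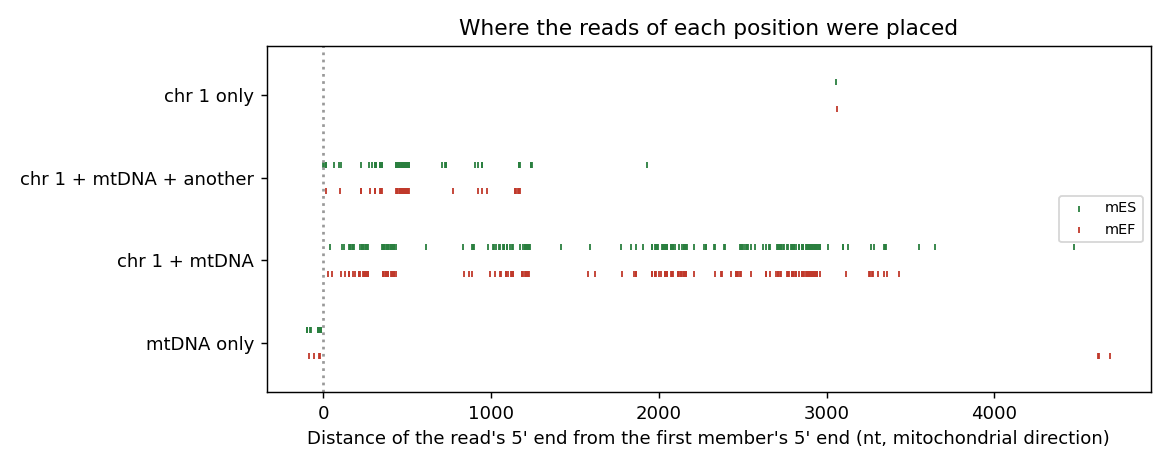
Each tick is a position with reads in mES (green) or mEF (red), placed by the distance of its 5' end in nt from the first member's 5' end in the direction of mitochondrial transcription, in a row for where its reads were placed. Ticks left of the dotted line and at the far right are mitochondrial only, the stretch between them is placed on chromosome 1 as well, the 2 positions on chromosome 1 only stand beside each other, and the single double placement far to the right lies past the lower limit of the region.

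The files do not hold the bases of the reads, so GRCm38 sequences were compared at the mitochondrial positions opposite the alignments. An aligner cannot tell identical sequences apart, so this comparison describes the placements and is not separate support for them. That the chromosome 1 copy has the same bases in mm9, the build of the alignments, was not checked. Of 452 distinct alignments of members (a 5' end and a span, over both cell types), 393 lay wholly inside 1 of the 7 pseudogenes. In 391 of them the pseudogene and the mitochondrial gene had the same sequence, and these were the alignments of 11108 reads, all placed on both. The remaining 2 held the T3C base and were the 2 with a single placement. The spans were 35 nt in runs 1 and 2 and 45 nt in run 3, with no gapped alignment among the members.

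The limits of the rule left little aside. The lowest member, at 24619371, had 8 records and the highest, at 24623017, also had 8. Below the limit, 3 mES reads on the minus strand at 24618539 were also placed at mitochondrial position 10877, with a sum of 24629416. No record on either strand lay in the 5000 nt above the upper limit. On the plus strand the region held 1 mES read of run 3, listed 2 times, at 24621519. It was also placed on the mitochondrial minus strand, at 7898.

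Part of the member reads had a further placement. On chromosome 2, 982 mES reads (20.9%) and 1559 mEF reads (20.4%) were placed again on the minus strand between 22442862 and 22444095. Their mitochondrial positions ran from 6400 to 7645, the end of mt-Co1 through mt-Co2. In this range the placement on chromosome 2 was present for 36.7% of the mES member reads (34.9 to 38.6) and 43.9% of the mEF reads (42.2 to 45.5). The sum of chromosome 2 and mitochondrial coordinates was 22450495 for 2231 reads up to mitochondrial position 7378 and 22450507 for the 310 reads from 7540 on, a step of 12 nt where the chromosome 1 copy had none. Chromosome 11 took 32 mES reads and 1 mEF read, and chromosome 18 took 21 mES reads.

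The members followed the mitochondrial mRNAs and were dense toward the 3' ends. Among reads whose 5' end lay in a gene, the alignment ended at a median of 120 nt before the annotated gene end in mES and 100 nt in mEF. Of these reads 73.0% in mES and 81.8% in mEF ended within 200 nt of it. Neighbouring positions were 2 nt apart at the median, and the widest stretch without a member, 171 nt, lay between mitochondrial positions 7645 and 7816, from the end of mt-Co2 into mt-Atp8.

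**Figure D2:**
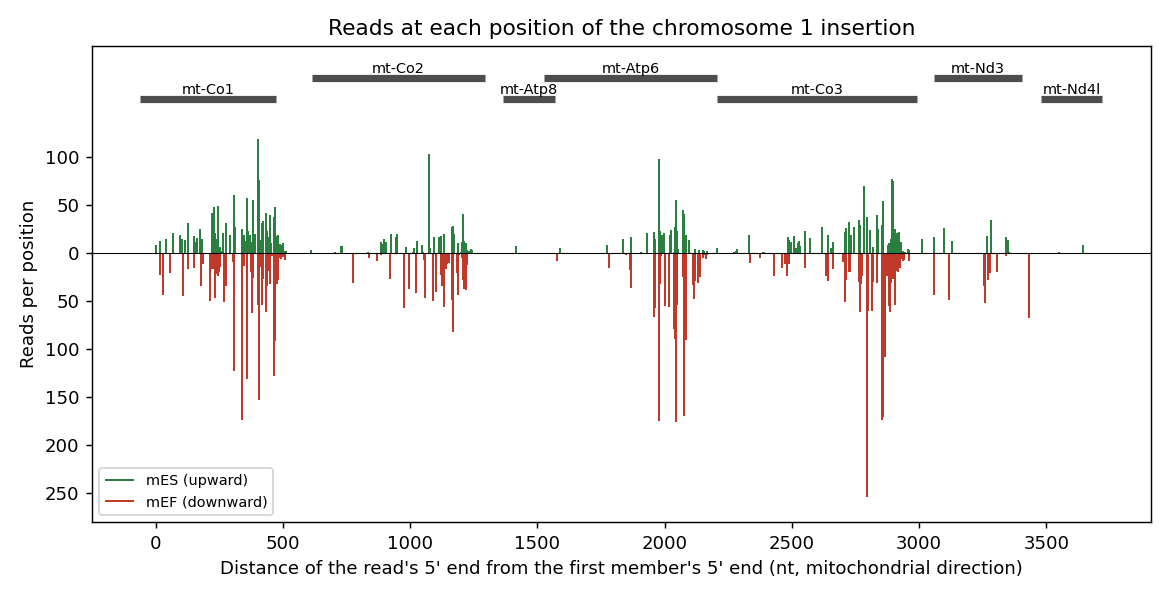
Reads per position in mES (upward) and mEF (downward) against the distance in nt from the first member's 5' end, in the direction of mitochondrial transcription, with bars for the mitochondrial genes opposite the copy. The reads pile up toward the ends of mt-Co1, mt-Co2, mt-Atp6 and mt-Co3, the tallest mES position has 118 reads and the tallest mEF position 254, and mt-Atp8 and mt-Nd4l hold very few.

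The 3 cytochrome c oxidase subunits encoded by mitochondria held most of the member reads. The 473 nt of mt-Co1 that the members cover had 1986 mES reads at 91 positions, 42.2% of all member reads (40.8 to 43.6), and 2405 mEF reads at 68 positions, 31.5% (30.5 to 32.6). Its level was 2647 CPM in mES and 5240 CPM in mEF (records per 1000000 records of the aggregate). Per 100 nt this is 560 and 1108 CPM, by this measure the densest part of the copy in both cell types. These 473 nt are the 3' end of mt-Co1 only, while mt-Co2, mt-Atp6, mt-Co3 and mt-Nd3 are taken over their whole length. Reads were dense toward the 3' ends, so these densities cannot be ranked on equal terms. For mt-Co3 there were 1255 mES reads (26.7%) and 2186 mEF reads (28.7%), at 1673 and 4762 CPM, or 213 and 607 CPM per 100 nt. The second subunit gene, mt-Co2, had 575 reads (12.2%) at 766 CPM in mES and 962 reads (12.6%) at 2096 CPM in mEF, or 112 and 306 CPM per 100 nt. Between mt-Co1 and mt-Co2, 112 mES reads and 186 mEF reads started past the annotated end of mt-Co1 and outside any plus-strand gene. Of these, 109 in mES and 186 in mEF started ahead of mt-Td, the aspartate tRNA. The interval between mt-Co1 and mt-Td is antisense to mt-Ts1, a serine tRNA encoded on the other strand, into which the mt-Co1 mRNA is known to extend.

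The 2 subunits of ATP synthase differed widely in reads. For mt-Atp6, 600 mES reads (12.8%) lay at 37 positions and 1571 mEF reads (20.6%) at 39, at 799 and 3423 CPM, or 117 and 503 CPM per 100 nt. Its neighbour mt-Atp8, which shares an mRNA with mt-Atp6 and lies upstream of it, had 7 mES reads at 1 position, all in run 3, and none in mEF, where 3 counts are 6.54 CPM. Among the complex I subunits, mt-Nd3 had 147 mES reads at 10 positions and 252 mEF reads at 9, or 56.3 and 158 CPM per 100 nt. That includes the 60 reads at its first bases. The 169 nt of mt-Nd4l inside the stretch had 9 mES reads at 2 positions and none in mEF. Of the tRNA genes, mt-Tr held 68 mEF reads at 1 position and none in mES, and mt-Tg, the glycine tRNA, 14 mES reads at 1 position and none in mEF.

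How often a read had 3 placements differed by gene. Scores of 1 made up 36.9% of the mES and 43% of the mEF reads in mt-Co1 and 29.9% and 35.3% in mt-Co2. For mt-Atp6 they were 3.5% in mES and 0 reads in mEF, and 0 reads of mt-Co3 and mt-Nd3 had this score in either cell type.

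The positions with the most reads are printed with the sequence that the copy and the mitochondrial gene share there, 35 nt from the 5' end of the alignment in the sense of the transcript (GENCODE transcripts of GRCm38).
mEF, mt-Co3 bases 590 to 624: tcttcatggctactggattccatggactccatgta
mEF, mt-Atp6 bases 519 to 553: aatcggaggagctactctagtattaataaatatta
mES, mt-Co1 bases 1476 to 1510: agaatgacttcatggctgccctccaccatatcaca
mES, mt-Co2 bases 462 to 496: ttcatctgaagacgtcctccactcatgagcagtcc
The first of these, at 24620221 on chromosome 1 and mitochondrial position 9196, had 254 mEF reads, 166 in run 1 and 88 in run 2, against 10 reads in mES. The second, at 24620972 and mitochondrial 8445, had 176 mEF reads and 55 mES reads. In mES the highest position, at 24622614 and mitochondrial 6803, had 118 reads, 74 in run 1 and 44 in run 2, and no mEF read. The next, at 24621943 and mitochondrial 7474, had 103 mES reads and no mEF read. Of the 5 highest positions in each cell type, the other 3 in mES lay in mt-Atp6 (24621038, 98 reads), mt-Co3 (24620124, 77 reads) and mt-Co1 (24622610, 76 reads). In mEF these had 74, 13 and 153 reads, in that order. The other 3 in mEF lay in mt-Atp6 (24621039, 175 reads), mt-Co3 (24620161, 174 reads) and mt-Co1 (24622678, 174 reads). In mES these had 0, 29 and 0 reads, in that order. Positions 24621038 and 24621039, both in mt-Atp6, are adjacent. None of the 10 had more than 3 reads in run 3.

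Reads were thus heaped on single positions, and the heaps were not shared evenly. A position had a median of 12 records in mES and 20 in mEF, against a mean of 16.4 and 31.0 here and 13.9 and 18.2 over all positions of the series. The 10 highest positions of mES held 16.7% of its records, and those of mEF 22.4%. Of the 427 positions 106 were found in both cell types, 36.9% of the mES and 43.1% of the mEF positions, and 44.9% of the records in mES and 52.7% in mEF were at these. Over all 75148 positions of the series, 4051 were found in both, 7.51% of those in mES and 16% of those in mEF, at the lower mean number of records given above. At the 106 shared positions of the region mEF had more reads at 68, mES at 33, and 5 were equal. Within a cell type, 229 of the 236 mES positions of run 2 and 212 of the 217 mEF positions were also in run 1. For run 3 the overlap with run 1 was 9 of 28 (mES) and 8 of 16 (mEF).

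The region's level was higher in mEF than in mES in each run. Over all runs it was 6279 CPM in mES (95% exact Poisson interval 6101 to 6461) and 16623 CPM in mEF (16252 to 17000), a ratio of mEF to mES of 2.65 (2.55 to 2.75). Run 1 gave 7019 CPM in mES and 17630 in mEF, a ratio of 2.51 (2.40 to 2.63). Run 2 gave 7448 and 17683 CPM, a ratio of 2.37 (2.23 to 2.53). Run 3 gave lower levels, 1112 and 1819 CPM, and a ratio of 1.64 (1.16 to 2.27). In distinct positions per 1000000 positions the levels were closer, 5320 in mES and 9742 in mEF. Without replicates, whether the difference exceeds the spread between cultures or pools cannot be said. From a mixture of human and mouse cells, the paper estimates that most barcodes likely also carry transcripts of other cells. Their estimated number is a sizeable part of the average number of unique transcripts it reports per cell barcode. The levels were not corrected for these foreign transcripts, and their effect on the ratios and shared positions was not tested.

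By gene the ratio was not the same. Over all runs mEF exceeded mES by 1.98 times in mt-Co1 (1.86 to 2.10), 2.74 in mt-Co2 (2.47 to 3.04), 2.80 in mt-Nd3, 2.85 in mt-Co3 (2.65 to 3.05) and 4.28 in mt-Atp6 (3.9 to 4.71). Except for mt-Nd3, which was 2.87 in run 1, these pooled ratios lie above those of every run that gives one. Run 3 holds 108810 of 750739 mES records and 29681 of 459005 mEF records. Without run 3 they were 1.86 for mt-Co1, 2.48 for mt-Co2, 2.52 for mt-Nd3, 2.65 for mt-Co3 and 3.97 for mt-Atp6, and 2.47 for the whole region. The order of mt-Co1 at the bottom and mt-Atp6 at the top held in runs 1 and 2, which share most positions and so are not independent. In run 3, mt-Co1 had 57 mES records and 8 mEF records, a ratio of 0.515 (0.212 to 1.08), and mt-Co2 had 0 and 7 records. In distinct positions per 1000000 the ratios of the 5 genes were 1.6 for mt-Co1, 1.73 for mt-Co2, 1.89 for mt-Co3, 1.92 for mt-Nd3 and 2.25 for mt-Atp6.

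**Figure D3:**
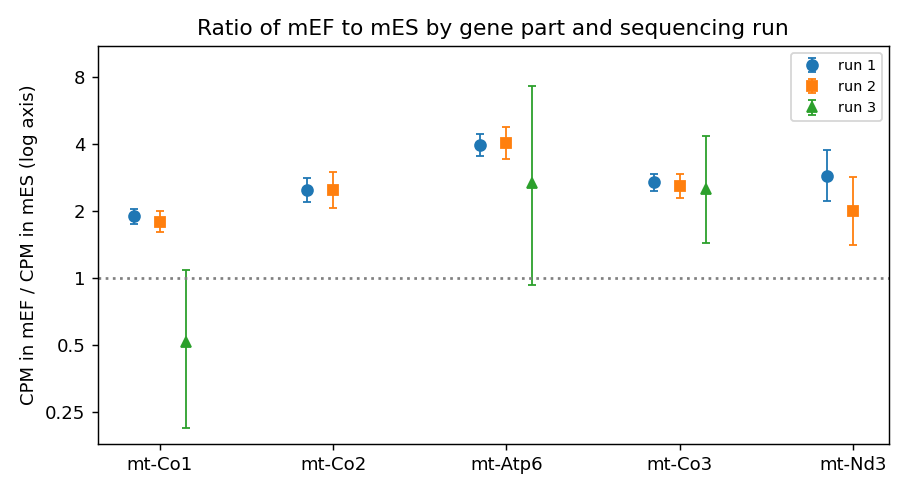
Ratio of CPM in mEF to CPM in mES on a log axis for the 5 mitochondrial mRNA parts opposite the copy, by sequencing run, with 95% exact intervals from counts. Runs 1 and 2 lie above 1 for all 5 genes, from 1.79 to 4.02, while run 3 rests on few records, lies below 1 for mt-Co1 and gives no ratio for mt-Co2 and mt-Nd3, which had no mES record there.

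These values were set beside the mitochondrial chromosome outside the stretch. Its rRNA genes, mt-Rnr1 and mt-Rnr2, were higher in mES, at 16637 CPM against 6331 CPM, and the remaining mitochondrial positions outside the stretch were higher in mEF, at 6889 CPM against 3675 CPM, a ratio of 1.87. In run 3 the rRNA genes took 86398 CPM in mES and 50841 CPM in mEF, against 4930 and 3208 CPM in run 1. The stretch opposite the copy held 26.5% of the mES mitochondrial plus-strand reads and 56.0% of the mEF reads. The mES share rests on run 3, where it was 1.52% (mEF 3.59%). Without run 3 it was 44.3% in mES and 62.6% in mEF.

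A filter on the mapping score was then applied to the mitochondrial records. With the highest score only, mt-Co2, mt-Atp6, mt-Co3 and mt-Nd3 had no mitochondrial record left in either cell type, from levels of 2096, 3423, 4762 and 453 CPM in mEF. For mt-Co1 10.6% of the mES and 5.96% of the mEF records were left, all starting ahead of mitochondrial position 6400. By contrast mt-Nd1 and mt-Cytb kept all their records in both cell types and mt-Nd4 kept 99.4% in mES and all in mEF. In total the filter removed 29.4% of the mitochondrial plus-strand records in mES and 58.4% in mEF. Without run 3 it removed 48.9% and 65.3%, and in run 3 alone 8.49% and 7.15%. The ratio of mEF to mES of the whole mitochondrial chromosome was 1.12 (1.1 to 1.14) with all scores and 0.661 (0.641 to 0.682) with the highest only, each taken per 1000000 records of the same scores. Within runs it did not cross 1, going from 1.75 to 1.17 (run 1), from 1.73 to 1.19 (run 2) and from 0.619 to 0.63 (run 3). Without the rRNA genes the ratio was 2.36 with all scores and 2.02 with the highest.

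**Figure D4:**
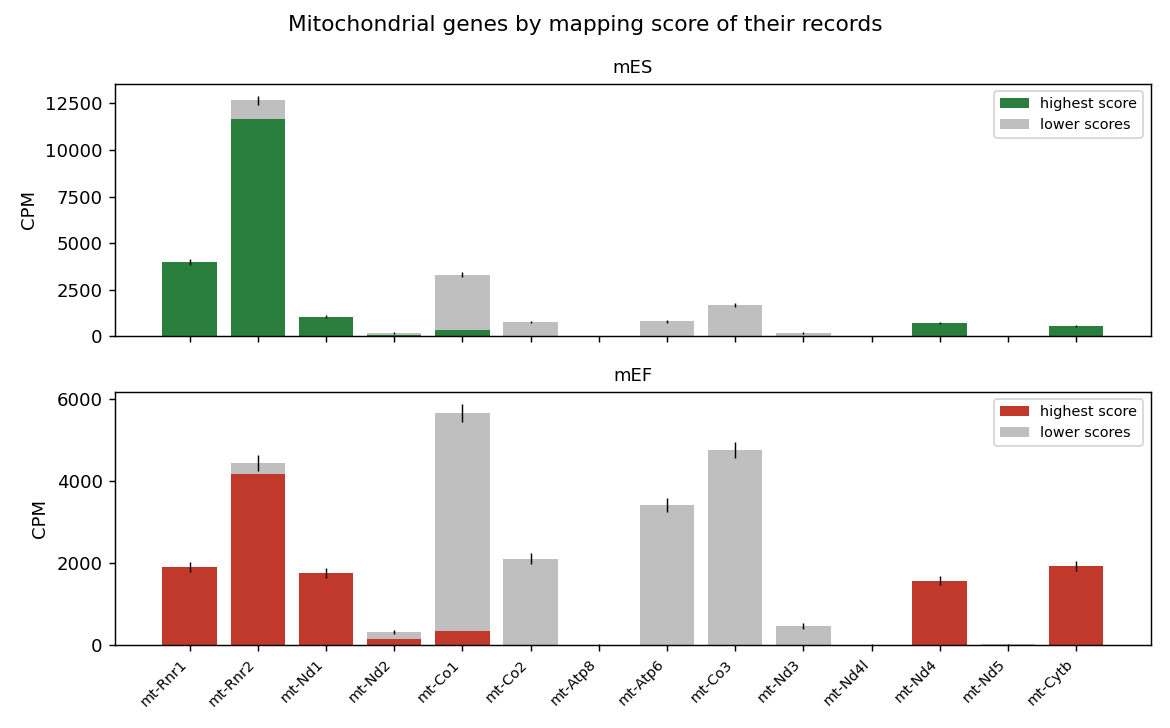
Level in CPM of each mitochondrial rRNA and plus-strand mRNA gene in mES (top) and mEF (bottom), with records of the highest mapping score in color and lower scores in gray, and 95% exact Poisson intervals of the whole bar. The bars from mt-Co2 to mt-Nd3 are gray throughout and that of mt-Co1 nearly so, while mt-Rnr1, mt-Nd1 and mt-Cytb are in color.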

How the data were processed

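The data were alignments of the 3' ends of polyA transcripts from 6 libraries of mixed mES and mEF cells. The authors aligned the reads with TopHat (version not given in the sources used here) to mm9, per the submitters' processing notes, sorted the reads by barcode into cell types and merged the libraries. The deposited files list the start, end, read name, strand and the aligner's mapping score of each alignment. The deposited barcode list was not used, as the records carry no barcode.

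The 5' end was the end of a minus-strand record and the start, counted from 1, of a plus-strand record. Reads were joined by name within an aggregate, and records listed 2 times counted once among reads. CPM are records per 1000000 records of the aggregate (or run), and 3 counts are 4.00 CPM in mES and 6.54 CPM in mEF. Intervals are exact binomial, exact Poisson or, for ratios, exact conditional binomial, at 95%. PCR copies are not independent molecules, so these cover counting error only. There is 1 pool per cell type, so no p-value was computed and no gene was called changed.

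Mitochondrial genes are those of GENCODE M21 (GRCm38), with the mitochondrial sequence taken to be the same as in mm9. The sequence of the chromosome 1 copy was also taken to be the same, which was not checked. As a check, of the reads starting in mt-Nd1, mt-Nd2, mt-Co2, mt-Co3, mt-Nd3 and mt-Cytb, 0 ran over 5 nt past the annotated gene end. In mt-Atp6 6 reads did (0.276%), and in mt-Co1 674 of 5063 (13.3%). A base shared by overlapping genes was given to the downstream one. Pseudogene and mitochondrial transcripts were aligned pairwise with Biopython 1.88. Coordinates were not converted between builds. All mitochondrial genes that the members overlap are named, with the 5 positions with the most reads per cell type and the positions on chromosome 1 only. The members and lists were chosen with earlier results of these data known. The pairing step was tested on simulated placements. Alternatives were distinct positions, the highest score, the other strand, wider limits, single runs left out, other totals and other gene assignment. Python 3.11.15, numpy 2.4.6, pandas 2.3.3, scipy 1.17.1 and matplotlib 3.10.9 were used.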

Additional observations from a re-analysis of the deposited data

How the results depend on the processing

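No paired analysis was possible because the labels give the cell types no replicate numbers and the files hold 1 pool of each. The ratios within sequencing runs stand with the results. Of 73 values recomputed under alternatives, 48 stayed within 1.5 times (counts) or within the counting interval (shares and ratios), 24 moved and 1 changed direction.

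The number of positions fell to 1 in mES and 1 in mEF with the highest score, and to 1 and 0 on the plus strand. The share of member reads also on the mitochondrial chromosome was 99.6% of positions in mEF, and 100% in both cell types for scores below the highest, as those scores go with several placements. It ranged from 99.5% to 99.7% in mES and stayed at 99.4% in mEF when single runs were left out. Reads on chromosome 1 only, 16 in mES and 44 in mEF, were 1 and 1 in distinct positions, from 8 to 16 and from 14 to 44 without single runs. The ratio of mES to mEF, 0.378, was 0.546 in distinct positions and ran from 0.353 to 0.405 without single runs. Distinct positions change both the region's count and the total, and the cause of the move was not tested. The share of mt-Co1 reads was 31.7% of mES positions and 27.6% of mEF positions, and 38.7% and 26.3% by the middle of the alignment. In positions, mt-Co2 had 16.4% in mES and 15.4% in mEF, and mt-Atp6 had 15.9% in mEF. Leaving out run 3 moved the mES share of mitochondrial reads opposite the copy from 26.5% to 44.3%. This and the following settings were chosen after seeing the data. With the highest score only, the ratio of mEF to mES of the mitochondrial chromosome over all runs turned from 1.12 to 0.661. Within each single run it did not cross 1. Without rRNA genes the ratio over all runs moved from 2.36 to 2.02. Run 3, with 112 mES and 54 mEF member reads, limits what can be said by run.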

Other observations

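Outside the stretch opposite the chromosome 1 copy, 963 mES and 384 mEF mitochondrial plus-strand reads had several placements. Chromosome 10 took 563 of the mES reads and 124 of the mEF reads, and in both cell types as many reads with several placements lay in mt-Rnr2, the large mitochondrial rRNA, at 45 positions in mES and 13 in mEF. Chromosome 2 took 287 mES reads and 130 mEF reads. In mt-Nd2, a complex I subunit gene, 66 mES and 78 mEF reads had several placements, and the highest score was left to 50.4% of its mES records and 45.8% of its mEF records. On the mitochondrial minus strand there were 30 reads in all, and 0 of them started in mt-Nd6, the mRNA gene encoded there.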
